A study of Mus musculus with 20 samples.

Results

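The response of the lung to thoracic radiation was followed in mice that had eaten a diet with 10% flaxseed. The comparison took 10 of the 20 mice of the series, chosen by their treatment labels. The irradiated group held 5 C57BL/6 mice (an inbred laboratory strain) that received flaxseed for 21 days and then 13.5 Gy to the thorax, with the lungs taken 48 h after the dose. The other group held 5 C57BL/6 mice that received flaxseed for 21 days and no radiation. Both groups therefore shared the diet, and radiation was the only treatment that differed by label. The remaining 5 mice given 13.5 Gy without flaxseed and the 5 untreated mice supply the corresponding difference without flaxseed. The sources used here do not state age, sex, a sham treatment or housing. Each mouse has its own number in the labels, and mice were treated as separate animals.

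Ionising radiation breaks DNA, and dividing cells respond through the p53 pathway with arrest, repair or death. In irradiated lung, lymphocytes and the cells lining the small vessels are known to be lost early, and inflammation and scarring follow later. Flaxseed is rich in lignans and alpha-linolenic acid and has been studied as a dietary antioxidant in irradiated lung. The arrays identify their 9600 spots by running numbers that the files do not pair with genes, so none of these pathways could be read from the data. The tissue label was likewise not checked against lung markers, and spots are named only by number.

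Each lung gave 1 array, hybridised with RNA labelled with the isotope 33P. Levels are log2 intensities after background correction and normalisation across all arrays, so a difference of 1 is a 2-fold change. Before normalisation, the median background-subtracted signal was 111.7 ± 20.5 in mice given flaxseed with radiation and 171.8 ± 12.7 in mice on flaxseed (SD, n = 5 each). These values did not overlap, at 84.55 to 138.3 against 157.7 to 184.3, and differed in an exact two-sided permutation test (p = 0.00794, the smallest this design allows, adjusted p = 0.0238 over 3 tests). Without flaxseed the same measure overlapped, at 91.18 to 172.2 in irradiated mice and 98.54 to 176.8 in untreated mice. The median local background, at 28.1 ± 3.68 and 30.8 ± 2.71, did not pass the test (exact permutation p = 0.246, adjusted p = 0.246). Nor did the share of spots brighter than their background, at 97.9% ± 0.272 and 98.1% ± 0.185 (exact permutation p = 0.0873, adjusted p = 0.131). After normalisation, arrays correlated at 0.970 to 0.980 within the irradiated flaxseed group, at 0.957 to 0.980 within the flaxseed group and at 0.938 to 0.975 between them. The first principal component of these 10 arrays held 30.5% of their variance. Its scores were 7.77 to 18.1 in irradiated flaxseed mice and -24.9 to -4.66 in flaxseed mice, so the groups lay apart on it.

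Many spots differed between irradiated flaxseed mice and flaxseed mice, mostly by less than 2-fold. Of 9600 spots, 488 rose (5.08%) and 349 fell (3.64%), together 837 or 8.72% (limma, Benjamini-Hochberg adjusted p under 0.05). Because whole lung was measured, fewer cells of a type and less RNA per cell cannot be told apart. The rises were even in size, with a median of 0.62 on the log2 scale and quartiles at 0.51 and 0.75. The falls had a median of -0.57 and quartiles at -0.71 and -0.46, with a longer tail. At least 1.5-fold changes were called in 292 higher and 165 lower spots, and at least 2-fold changes in 20 higher and 29 lower ones. Past 3-fold, 0 called spots were higher and 8 were lower, and past 4-fold 3 were lower. The smallest called change was 0.253. The 95% interval of a difference reached a median of 0.271 to each side over all spots, a 1.21-fold change before adjustment. Of 523 spots that differed at least 1.5-fold, 66 were not called.

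**Figure D1:**
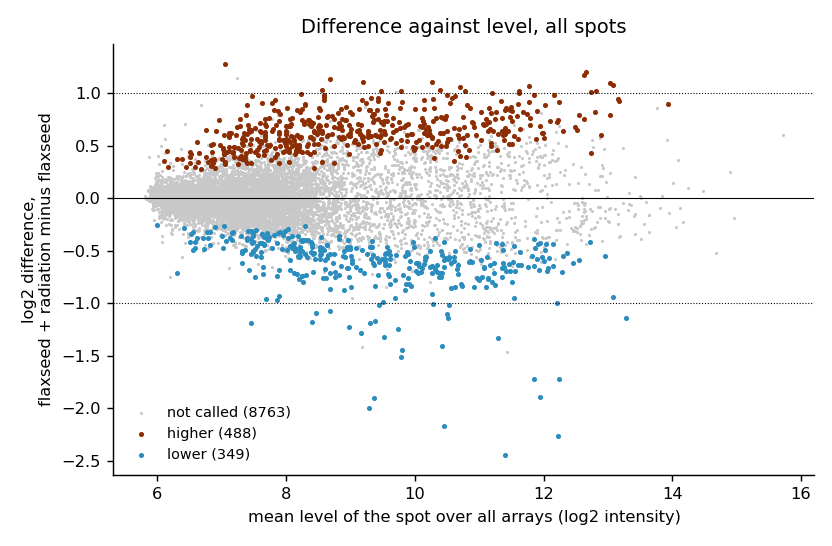
The log2 difference of flaxseed with radiation minus flaxseed is plotted against the mean log2 intensity of each of 9600 spots over 20 arrays, with the 488 spots called higher in brown and the 349 called lower in blue. Dotted lines mark 2-fold changes. The 8 spots below a 3-fold fall have no counterpart among the rises.

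The direction split depended on the processing. Of the calls, 58.3% were rises after quantile normalisation. The share was 78.4% with 75th percentile scaling (760 higher, 209 lower) and 52.6% with array brightness as a covariate (386 higher, 348 lower). It was 82.0% on the authors' deposited table (867 higher, 190 lower), where background correction, offset and scaling all differ. Which direction had more changes of at least 2-fold also depended on it, at 20 rises and 29 falls above. Rises and falls numbered 62 and 23 with 75th percentile scaling and 61 and 53 with array brightness as a covariate. They numbered 287 and 44 on the authors' deposited table and 96 and 51 with plain subtraction. With an offset of 10 they numbered 46 and 36, and with an offset of 200 they numbered 5 and 18. They numbered 41 and 30 without flaxseed replicate 5, and 10 and 32 without flaxseed replicate 4. They numbered 12 and 29 without irradiated flaxseed replicate 5, and 30 and 31 without irradiated flaxseed replicate 2.

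The groups were fully separated, with all 5 irradiated flaxseed mice beyond all 5 flaxseed mice, in 367 spots that were higher (3.82%) and 246 that were lower (2.56%), together 6.39% of all spots. Among the 837 called spots this held for 499, or 59.6%. The calls and the separation were read from the same mice, so this share describes the called spots and adds nothing to the calls. Calls were concentrated among bright spots. Of the 2400 brightest spots, with mean levels from 8.42 to 15.71, 21.8% were called (293 higher, 231 lower), against 7.21%, 4.25% and 1.58% of each following 2400 spots in order of falling level. The median size of the difference in these 4 classes was 0.302, 0.141, 0.113 and 0.0659, while the median standard error was 0.169, 0.138, 0.123 and 0.0903. The offset used in background correction narrows both in dim spots. The share of spots called followed signal, and the group that was brighter before normalisation was the flaxseed group. With array brightness as a covariate, 532 of the 837 calls were also made, and the median size of the 837 differences was 0.69 instead of 0.605. Because brightness did not overlap between the groups, its part in the result and that of radiation cannot be told apart.

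Called spots occurred along the whole list of spots in the array files. In 24 stretches of 400 lines each, between 21 and 49 spots were called (5.25% to 12.2%). The last stretch, which holds gene9340 (described below), had 46 rises and 3 falls, whereas each of the other 23 had 11 to 26 rises. A spot called higher was followed on the next line by another in 6.15% of cases, against 5.08% of all spots. For rises 2, 60, 120 and 1000 lines on, this was 4.71%, 7.90%, 5.53% and 3.47%. A spot called lower was followed on the next line by another in 8.02% of cases, against 3.64% of all spots. For falls 2, 60, 120 and 1000 lines on, this was 6.02%, 3.15%, 4.87% and 4.85%. The part of position on the array in these calls was not tested.

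The falls past 3-fold involved abundant signals. The 8 spots had mean levels between 10.49 and 13.54 in flaxseed mice, differences between -2.45 and -1.72, and signals of at least 2 times the background on all 10 arrays. The largest fall was that of gene4027. Its level was 10.49, 11.56, 9.99, 9.10 and 10.75 in the 5 irradiated flaxseed mice, against 12.38, 12.54, 13.54, 12.40 and 13.27 in the 5 flaxseed mice. The groups did not overlap, and the irradiated mice spread over a wider range, with the second mouse highest and the fourth lowest. Before normalisation the signals of gene4027 were 524 to 3140 over backgrounds of 28.5 to 57.1 in irradiated flaxseed mice, and 6430 to 13500 over backgrounds of 81.0 to 265 in flaxseed mice. The level was 10.38 ± 0.91 in irradiated flaxseed mice and 12.82 ± 0.54 in flaxseed mice (SD, n = 5 each). This is a difference of -2.45 (SE 0.371, 95% interval -3.22 to -1.67, limma adjusted p = 0.000741), or a 5.45-fold lower level.

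The spot gene3363 had levels of 9.74, 10.65, 9.04, 8.86 and 9.35 in irradiated flaxseed mice, against 11.44, 11.25, 12.08, 11.48 and 12.25 in flaxseed mice. Again the second irradiated flaxseed mouse was the highest and the fourth the lowest of its group, and the groups did not overlap. Its mean was 9.53 ± 0.71 in irradiated flaxseed mice and 11.70 ± 0.44 in flaxseed mice, a difference of -2.17 (SE 0.318, 95% interval -2.83 to -1.51, limma adjusted p = 0.000531). This corresponds to a 4.50-fold lower level.

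The same mice stood out across the 8 spots. Irradiated flaxseed replicate 2 had the highest level of its group in 8 of 8 spots, and replicate 4 the lowest in 6 of 8. In flaxseed mice, replicate 3 was highest in 5 spots and replicate 5 in the other 3. Averaged over the 8 spots, the level was 10.24 ± 0.78 in irradiated flaxseed mice (range 9.44 to 11.47) and 12.26 ± 0.54 in flaxseed mice (range 11.80 to 12.90). The groups did not overlap in 6 of the 8 spots, against 2.56% of all spots lower in this way. These spots were picked by their size of change on these 10 mice, so the separation describes them and adds nothing to the calls. Whether several of the 8 spots measure the same gene is not known from the files.

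**Figure D2:**
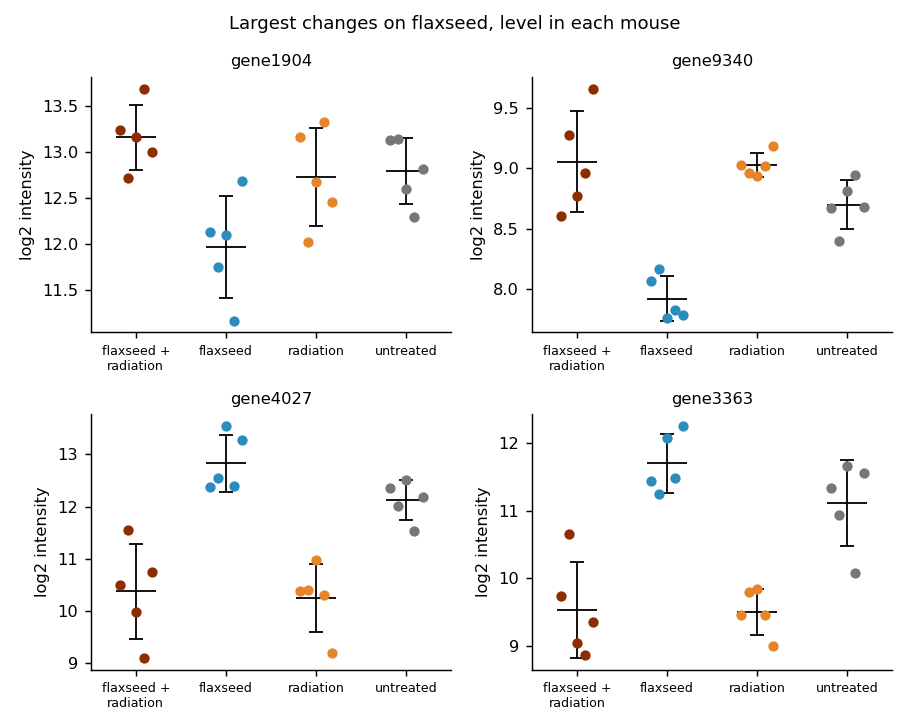
Log2 intensity of gene1904, gene9340, gene4027 and gene3363 in each of the 20 mice, with a point per mouse and the mean ± SD of 5 mice per group. By group mean, flaxseed mice are lowest in gene1904 and gene9340, while in gene4027 and gene3363 both irradiated groups are below both unirradiated groups.

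The rises were smaller. The spot gene1904, a bright one, had levels of 13.24, 12.72, 13.16, 13.69 and 13.00 in irradiated flaxseed mice, against 12.13, 11.75, 12.10, 11.16 and 12.68 in flaxseed mice. The lowest irradiated mouse and the highest flaxseed mouse were nearly level, at 12.72 and 12.68. Before normalisation the signals of gene1904 overlapped, at 7160 to 11500 in irradiated flaxseed mice and 2430 to 7940 in flaxseed mice. The mean was 13.16 ± 0.35 in irradiated flaxseed mice and 11.96 ± 0.56 in flaxseed mice, a difference of 1.20 (SE 0.266, 95% interval 0.64 to 1.75, limma adjusted p = 0.00740), or 2.29-fold.

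The spot gene9340 had levels of 8.61, 9.28, 8.77, 8.96 and 9.66 in irradiated flaxseed mice, against 8.07, 8.17, 7.76, 7.83 and 7.79 in flaxseed mice. The flaxseed mice were close together and the irradiated mice were spread over a range above them. Its mean was 9.06 ± 0.42 in irradiated flaxseed mice and 7.92 ± 0.18 in flaxseed mice, a difference of 1.13 (SE 0.153, 95% interval 0.81 to 1.45, limma adjusted p = 0.000419), or 2.19-fold. Before normalisation the signals of gene9340 overlapped, at 272 to 980 in irradiated flaxseed mice and 234 to 346 in flaxseed mice, so that its separation appeared only after the arrays were brought to a common scale. Over the 20 spots that rose at least 2-fold, irradiated flaxseed replicate 5 was highest of its group in 13, flaxseed replicate 5 was highest of its group in 13, and flaxseed replicate 4 was lowest in 11.

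The level that the called spots had in mice without flaxseed was compared on arrays that played no part in the call other than in the shared variance estimate and normalisation. Over the 488 spots that rose, the median level was 9.16 in irradiated flaxseed mice, 8.47 in flaxseed mice, 9.08 in irradiated mice and 8.90 in untreated mice. Over the 349 that fell, it was 8.92, 9.61, 9.03 and 9.29 in the same groups. In both directions the flaxseed group was thus at one end, and the untreated group lay between it and both irradiated groups. The untreated mean was nearer to the irradiated flaxseed mean than to the flaxseed mean in 329 of 488 rises (67.4%) and 224 of 349 falls (64.2%), against 54.7% of all spots. The spots were chosen for the distance between the flaxseed groups, which draws both of these to the ends of the order.

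**Figure D3:**
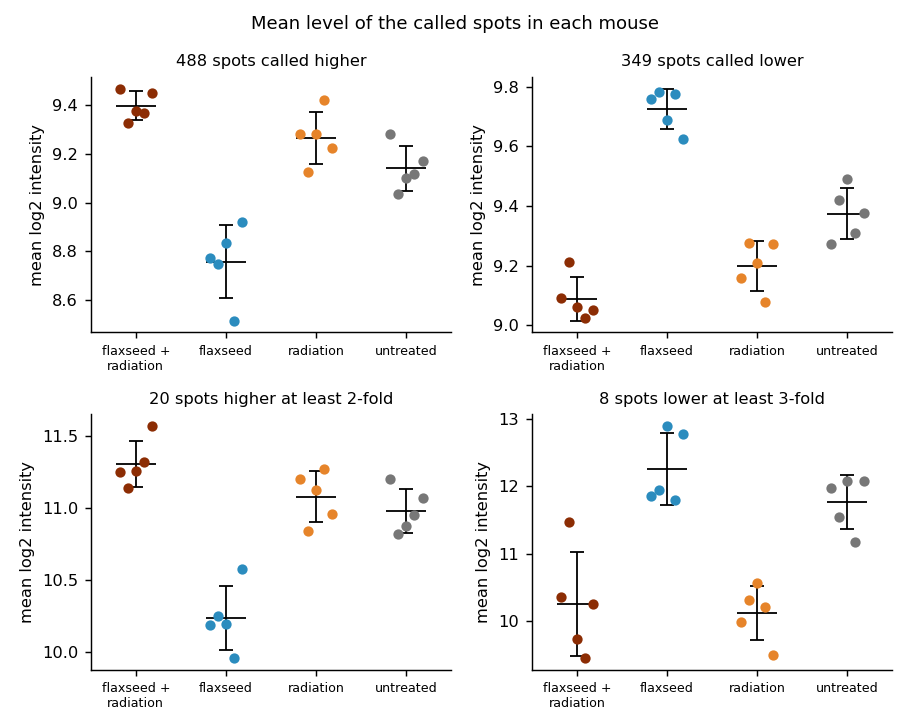
Mean log2 intensity per mouse over the 488 spots called higher, the 349 called lower, the 20 higher at least 2-fold and the 8 lower at least 3-fold, with the mean ± SD of 5 mice per group. In the 8 spots the irradiated mice lie at 9.49 to 10.56 and the untreated mice at 11.17 to 12.08, without overlap, while in the other 3 sets the groups without flaxseed overlap.

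Mouse by mouse, the mean over the 488 rises was 9.33 to 9.47 in irradiated flaxseed mice, 8.51 to 8.92 in flaxseed mice, 9.13 to 9.42 in irradiated mice and 9.04 to 9.28 in untreated mice. The mean over the 349 falls was 9.02 to 9.21 in irradiated flaxseed mice, 9.62 to 9.78 in flaxseed mice, 9.08 to 9.28 in irradiated mice and 9.27 to 9.49 in untreated mice. In both sets the flaxseed mice stood clear of the other 15, whereas irradiated and untreated mice overlapped. The spots were chosen for the distance between the flaxseed groups in these mice, and not for that between irradiated and untreated mice. The separation of the flaxseed mice therefore adds nothing to the calls, and the 2 comparisons are not alike.

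Without flaxseed, most of these spots had small differences, and the largest falls had large ones. The difference of radiation minus untreated had a median of 0.135 over the 488 rises and -0.12 over the 349 falls. Its sign was the same in 372 rises (76.2%) and 268 falls (76.8%). This compares with 55.8% of all spots, a share not matched for level (median 7.56, against 9.0 in called spots). In that comparison 0.0521% of all spots were called, and these included 1 of the 488 rises and 2 of the 349 falls in the same direction, and 1 rise and 0 falls in the opposite direction. Irradiated and untreated mice did not overlap, in the same direction, in 17 of the 488 rises, where 1.04% of all spots were higher in this way. They did not overlap in 26 of the 349 falls, where 1.14% of all spots were lower in this way.

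The agreement between the diets followed the size of the fall on flaxseed. For falls of under 1.5-fold on flaxseed, the median difference without flaxseed was -0.0732 and the sign was shared by 69.6% of 184 spots. For falls of 1.5 to 2-fold it was -0.158 and 82.4% of 136 spots, and for falls of 2 to 3-fold it was -0.479 and 20 of 21 spots. For the 8 falls of at least 3-fold it was -1.69, against -1.95 on flaxseed, and all 8 shared the sign, with a range of -2.26 to -1.16. Irradiated and untreated mice did not overlap in any of these 8 spots, where 1.14% of all spots were lower in this way. Of the 8, 1 passed the threshold of that comparison, and the limma adjusted p ranged from 0.0380 to 0.237.

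Among the rises, the median difference without flaxseed was 0.105, 0.14 and 0.2 for rises of under 1.5-fold, 1.5 to 2-fold and 2 to 3-fold, with 75.5%, 77.2% and 70.0% of spots sharing the sign. The 20 rises of 2 to 3-fold ranged from -1.43 to 0.53 without flaxseed, the lowest being that of gene0020, described below with the interactions. Of the 20 rises of at least 2-fold, 0 had irradiated mice fully above untreated mice. Of all spots 1.04% were higher in this way, so 0 of 20 is near that share.

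**Figure D4:**
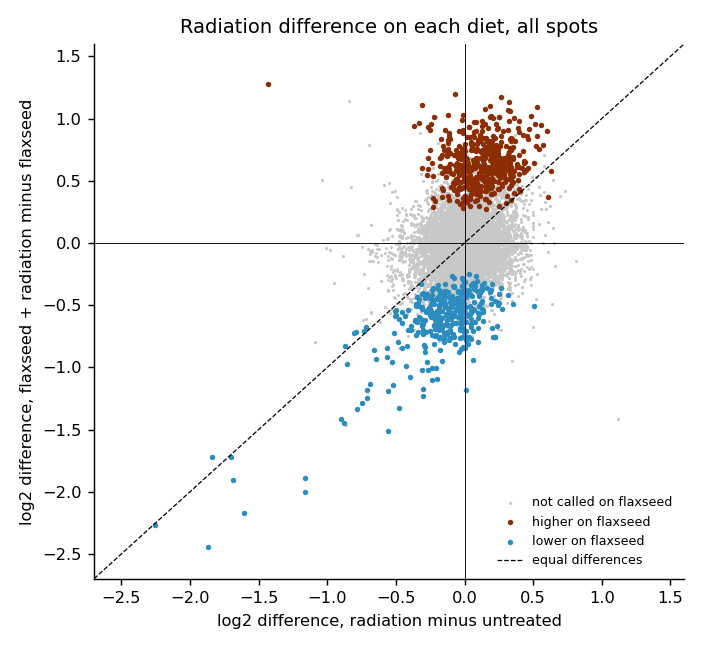
The log2 difference of flaxseed with radiation minus flaxseed is plotted against that of radiation minus untreated for 9600 spots, with spots called on flaxseed in brown (higher) and blue (lower), and a dashed line where both differences are equal. The largest falls lie near the line, and most other called spots lie near 0 on the horizontal axis.

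The named spots had the same contrast. In gene4027 the level without flaxseed was 10.25 ± 0.65 in irradiated mice and 12.12 ± 0.38 in untreated mice, a difference of -1.87 (95% interval -2.64 to -1.09, limma adjusted p = 0.0661). In gene3363 it was 9.51 ± 0.34 in irradiated mice and 11.11 ± 0.64 in untreated mice, a difference of -1.61 (95% interval -2.27 to -0.94, limma adjusted p = 0.0661). Both missed the threshold in this comparison and passed it in 4 and 5 of 12 other settings. In gene1904 it was 12.72 ± 0.53 in irradiated mice and 12.80 ± 0.36 in untreated mice, a difference of -0.07 with an interval of -0.63 to 0.48 (limma adjusted p = 0.956). In gene9340 it was 9.03 ± 0.10 in irradiated mice and 8.70 ± 0.21 in untreated mice, a difference of 0.33 with an interval of 0.01 to 0.65 (limma adjusted p = 0.436).

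Whether the radiation difference depended on the diet was tested as an interaction, the difference on flaxseed minus that without. It was called in 11 spots (0.115%), of which 9 were positive (0.0938% of all spots) and 2 negative (0.0208%). An unadjusted limma p under 0.05 was reached in 1280 of 9600 spots. All 9 positive calls were among the 488 rises on flaxseed and both negative calls among the 349 falls. At an unadjusted limma p under 0.05, the interaction had the direction of the change in 303 of the 488 rises and 203 of the 349 falls. The interaction contains the difference on flaxseed, so this overlap is partly built in and adds nothing to the calls. The interaction is less precise than a single difference, and its 95% interval reached a median of 0.383 to each side. The count depended on single mice and on the processing. It was 35 without flaxseed replicate 5 and 2 without irradiated flaxseed replicate 1 or radiation replicate 5. It was 30 with 75th percentile scaling, and 136 on the authors' deposited table, which differs in background correction, offset and scaling at once. Of gene1904, gene9340, gene4027 and gene3363, none passed it, except gene9340 on the authors' deposited table (1.23, limma adjusted p = 0.0381). The interaction was 1.27 in gene1904 (95% interval 0.48 to 2.05, limma adjusted p = 0.168) and 0.81 in gene9340 (95% interval 0.35 to 1.26, limma adjusted p = 0.133). It was -0.58 in gene4027 (95% interval -1.67 to 0.52, limma adjusted p = 0.676) and -0.56 in gene3363 (95% interval -1.50 to 0.38, limma adjusted p = 0.626). Over the 8 spots lowered at least 3-fold, it ranged from -0.834 to 0.117, with 0 calls. The intervals of gene4027 and gene3363 leave room for a fall on flaxseed that is larger or slightly smaller than that without it.

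The largest interaction was that of gene0020, a dim spot that the naming rule passes over and that was chosen after its values were seen. Its level was 7.42, 7.82, 7.62, 7.83 and 7.30 in irradiated flaxseed mice and 5.87, 6.01, 6.51, 6.57 and 6.62 in flaxseed mice. Without flaxseed the level of gene0020 was 6.44, 6.50, 6.58, 6.51 and 6.23 in irradiated mice and 7.98, 7.59, 7.90, 7.69 and 8.25 in untreated mice. Within each diet the groups did not overlap, and their order was opposite. The difference of gene0020 was 1.28 on flaxseed (SE 0.154, limma adjusted p = 0.000156) and -1.43 without it (SE 0.154, limma adjusted p = 5.24e-05), an interaction of 2.71 (SE 0.217, limma adjusted p = 7.04e-07). Its signals before normalisation were 103 to 194 in irradiated flaxseed mice and 29.3 to 92.9 in flaxseed mice, 1 of which was below its local background of 36.7. Without flaxseed they were 33.4 to 68.5 in irradiated mice, at 1.59 to 2.94 times their background, and 126 to 285 in untreated mice. Both low groups were thus near the background. The interaction of gene0020 was called in the 11 other settings that tested it and in all 20 fits without 1 mouse, with values of 1.29 to 6.37 over the settings. Without flaxseed, its difference was not called with plain subtraction (limma adjusted p = 0.212).

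Among the called interactions of spots bright on all 20 arrays, gene7134 had the largest positive value. Its level was 9.52, 9.16, 9.52, 9.73 and 10.23 in irradiated flaxseed mice and 8.83, 8.63, 8.84, 7.94 and 8.38 in flaxseed mice. Without flaxseed it was 9.05, 8.76, 9.38, 9.48 and 9.10 in irradiated mice and 9.40, 9.52, 9.60, 9.29 and 9.49 in untreated mice. Flaxseed mice were low, and the untreated mice were within the range of the irradiated flaxseed mice. The radiation difference was 1.11 on flaxseed (SE 0.185, limma adjusted p = 0.00129) and -0.31 without it (SE 0.185, limma adjusted p = 0.574), an interaction of 1.41 (SE 0.261, limma adjusted p = 0.0373).

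The spot gene4281 was likewise lowest on flaxseed alone, at 8.11 ± 0.18 in irradiated flaxseed mice, 7.21 ± 0.25 in flaxseed mice, 7.83 ± 0.31 in irradiated mice and 7.98 ± 0.16 in untreated mice. Its difference was 0.91 on flaxseed and -0.14 without, an interaction of 1.05 (SE 0.199, limma adjusted p = 0.0408). The 5 irradiated flaxseed mice, at 7.99 to 8.42, lay above the 5 flaxseed mice, at 6.89 to 7.60. Before normalisation the signals of gene4281 overlapped, at 198 to 253 in irradiated flaxseed mice and 107 to 210 in flaxseed mice.

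The negative interactions showed the opposite order. The spot gene8217 had levels of 12.51, 12.61, 12.42, 12.24 and 12.90 in irradiated flaxseed mice and 13.42, 13.58, 13.50, 13.52 and 13.36 in flaxseed mice. Flaxseed mice were high and close together, with an SD of 0.09. Without flaxseed its mean was 13.18 ± 0.29 in irradiated mice and 13.12 ± 0.20 in untreated mice. The difference was -0.94 on flaxseed (SE 0.134, limma adjusted p = 0.000435) and 0.06 without (SE 0.134, limma adjusted p = 0.916), an interaction of -0.999 (SE 0.189, limma adjusted p = 0.0408).

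The spot gene3400 was dimmer, with signals of 59.8 to 116 in irradiated flaxseed mice and 193 to 280 in flaxseed mice before normalisation. Its mean level was 7.21 ± 0.18 in irradiated flaxseed mice, 7.71 ± 0.19 in flaxseed mice, 7.45 ± 0.11 in irradiated mice and 7.09 ± 0.16 in untreated mice. The difference was -0.49 on flaxseed and 0.35 without it, an interaction of -0.85 (SE 0.150, limma adjusted p = 0.0322). The calls of these 4 interactions depended on single mice and settings. Leaving out 1 mouse ended the call of gene7134 in 13, gene4281 in 15, gene8217 in 16 and gene3400 in 6 of 20 fits. With plain subtraction the limma adjusted p was 0.0581 for gene7134, 0.0581 for gene4281 and 0.111 for gene8217, and with an offset of 200 it was 0.0547 for these 3 spots. With an offset of 200 the interaction of gene4281 was 0.60. Array weights ended the call of gene4281 (limma adjusted p = 0.0513) and a variance trend that of gene8217 (limma adjusted p = 0.0738). On the authors' deposited table gene8217 had -0.66 (limma adjusted p = 0.0993). None of these 4 interactions passed the threshold with array brightness as a covariate, where the limma adjusted p was 0.0774 for each. Their radiation differences on flaxseed remained called in that setting.

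**Figure D5:**
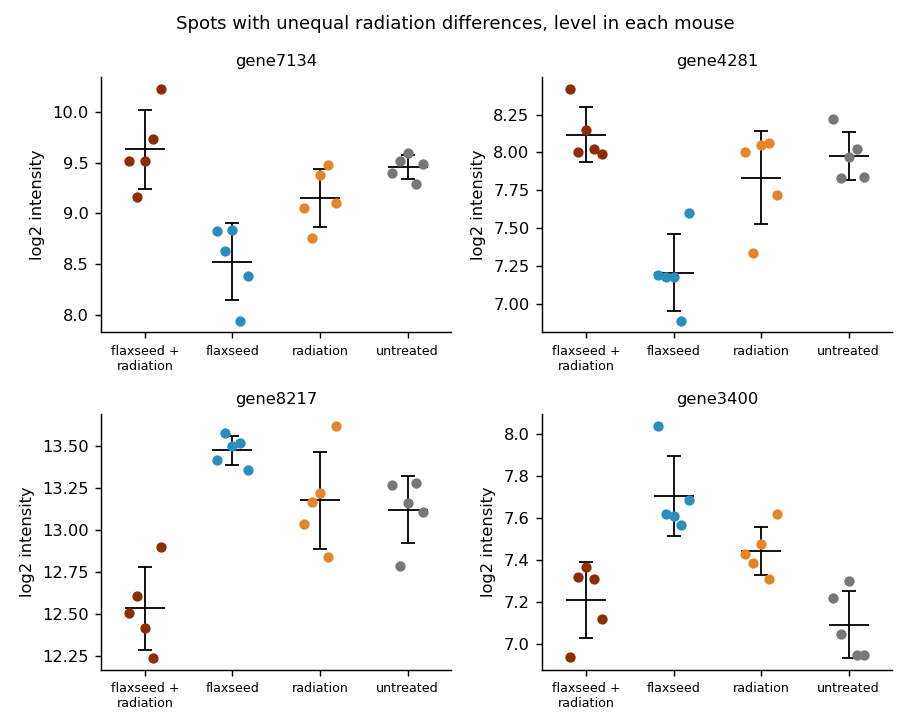
Log2 intensity of gene7134, gene4281, gene8217 and gene3400 in each of the 20 mice, with a point per mouse and the mean ± SD of 5 mice per group. The flaxseed group has the lowest mean in gene7134 and gene4281 and the highest in gene8217 and gene3400.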

How the data were processed

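Per the labels' protocols, total lung RNA was extracted with guanidinium thiocyanate, phenol and chloroform and labelled with 33P by reverse transcriptase. The deposited array files give, per the file headers, each spot's linear intensity (median of the signal) and that of its local background, before any normalisation. In the authors' processed table the intensity is signal minus background over the array's median of that difference, with part of the values at the constant 0.002. Its rows follow the line order of the array files, as tested on the values. The sources used here name no image software.

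Background was corrected by normexp (offset 50), and log2 intensities of 20 arrays were quantile normalised together. Differences come from limma 3.58.1 in R 4.3.3, with 1 coefficient per group of 5 mice, eBayes, and Benjamini-Hochberg adjustment over 9600 spots. The offset understates changes of dim spots. No dim spots were left out. Whole-array values were compared by exact permutation. The number of arrays limits the precision. The steps were run on simulated data with known changes, independent noise and a single brightness factor per array. This checks the steps and not the calls made here.

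Named spots are the 2 largest rises and 2 largest falls among called spots whose groups do not overlap and whose signal is at least 2 times background on the 10 arrays. For the interaction, they are the 2 most positive and 2 most negative called spots that meet this on 20 arrays. The spot called on both diets in opposite directions and the sets by fold size were added after the values were seen. The comparison and rules were chosen with earlier results of these data known. Gene lists and markers were not applied, since spots have no gene names.

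The alternatives were 13 settings of background, offset, scaling, filter, values and model, and leaving out each mouse.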

Additional observations from a re-analysis of the deposited data

Results flagged for a closer look

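In 60 groups of 5 values checked for a lone extreme value, 3 held one. Chance flags about 1 in 20 of such checks. These checks share mice and spots, and whether the 3 values exceed chance was not tested. In gene3400, flaxseed replicate 1 stood above the other flaxseed mice at 8.04. In mean correlation with its own group, irradiated flaxseed replicate 5 was low at 0.9723 and flaxseed replicate 4 was low at 0.9602. The value of 0.9723 lay within the 0.9709 to 0.9732 of flaxseed replicates 1, 2, 3 and 5. Without flaxseed replicate 4, 647 spots were called between the flaxseed groups, of which 577 were among the 837. Without irradiated flaxseed replicate 5, 655 were called, of which 602 were among the 837.

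The radiation difference differed between the diets by the interaction test in the 4 spots named for it and in gene0020, although 3 to 5 other settings for gene7134, gene4281 and gene8217, 1 for gene3400 and 6 to 16 of 20 fits without 1 mouse ended the calls of those 4. The interaction was 2.71 in gene0020, 1.41 in gene7134, 1.05 in gene4281, -0.999 in gene8217 and -0.85 in gene3400.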

How the results depend on the processing

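Between the flaxseed groups, the count of 837 spots ranged from 610 to 1057 over 13 other settings and from 601 to 918 when 1 mouse was left out. Of the 837, between 532 and 811 were also called in the other settings and between 576 and 754 without 1 mouse. Falls of at least 3-fold numbered 7 to 17 over the settings (17 with plain subtraction, 13 on the authors' deposited table) and 6 to 10 without 1 mouse. Rises of at least 3-fold numbered 0 to 5 over the settings and 0 without any 1 mouse. The calls of gene1904, gene9340, gene4027 and gene3363 were kept in all of these fits. The difference in median signal between the flaxseed groups ranged from -66.7 to -53.26 without 1 mouse, and kept its side of the threshold with both other summaries.

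The count of 11 interactions was 6 with plain subtraction, 6 with an offset of 200, 30 with 75th percentile scaling, 6 among spots above the median level, 136 on the authors' deposited table and 4 with array brightness as a covariate. It ranged from 2 to 35 without 1 mouse: 35 without flaxseed replicate 5, 2 without irradiated flaxseed replicate 1 or radiation replicate 5, and 4 to 6 without flaxseed replicate 2, radiation replicate 2, untreated replicate 1, 3, 4 or 5, or irradiated flaxseed replicate 3, 4 or 5. The restriction to brighter spots tests fewer of them. Leaving out a mouse leaves fewer samples, and the count went up as well as down in those fits. The cause of these changes was not tested for any setting or left-out mouse.

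Without flaxseed, gene1904 differed by -0.07, and this ranged from -0.2224 to 0.1049 without 1 mouse. For gene8217 the value of 0.06 was -0.04281 with 75th percentile scaling and -0.1023 on the authors' deposited table, and -0.05229 to 0.1445 without 1 mouse. No paired analysis was possible because the labels number the mice 1 to 20 and give the groups no shared numbers.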
